A study of Mus musculus with 15 samples.

Results

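The glucocorticoid receptor gene Nr3c1 and 9 genes around it (Hsd11b1, Fkbp5, Tsc22d3, Zbtb16, Sgk1, Mt1, Mt2, Pdk4 and Errfi1) were followed in mammary tissue of mice given BDE-47, a brominated flame retardant. The genes were taken by name from the deposited table of each mouse, and all 10 were found among 52526 gene names. The mice were female nu/nu nude mice (Crl:NU-Foxn1 nu), which lack a thymus and therefore most T cells. From 8 weeks of age or later they carried osmotic pumps under the skin for 16 weeks, which released BDE-47 at 0.03 mg/kg/d in PEG300 with 1% DMSO (7 mice) or the vehicle alone (8 mice). The authors also detected BDE-47 in mammary tissue of vehicle mice, at a significantly lower level and from a source they could not name. RNA came from the left 4th mammary gland, as 1 library per mouse, and was read at the 3′ end of each transcript. The experiment also served a study of xenografts, and because the sample labels do not say which mice had one near the gland, xenograft presence was not used here. Values are log2(CPM), where CPM is the number of reads of a gene scaled to a common total of mapped reads per library, and a gene under 1 CPM in a mouse is listed at 0. Of the 10 genes, 5 were above 1 CPM in all 15 mice and 9 were above it in at least 7 mice, the minimum for the test across genes.

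Libraries held 10.1 to 19.6 M mapped reads, so 1 CPM stood for 10.1 to 19.6 reads. A value of 0 does not show that a gene was silent, since Tbp and Pgk1, which nearly every cell uses, were each listed at 0 in 12 of 15 mice. The tissue held adipocyte and luminal epithelial markers in every mouse, but 3 mice stood apart. Vehicle mice 6 and 8 had all 8 of 8 B cell markers above 1 CPM (summed levels of 615 and 632 CPM), whereas the other 13 mice had at most 1 of them. Their adipocyte markers summed to 477 and 1159.9 CPM, against 9489.6 to 32158 CPM in the 12 mice that did not stand apart. BDE-47 mouse 6 had skeletal muscle markers at a summed 105109 CPM, against at most 210.3 CPM elsewhere, and adipocyte markers at 3959.8 CPM. In such bulk tissue, fewer cells of a type and less RNA per cell cannot be told apart.

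Glucocorticoids such as corticosterone enter cells and bind the receptor encoded by Nr3c1, which then moves to the nucleus and switches on genes that carry its response element. The enzyme of Hsd11b1 makes active corticosterone from an inert keto form inside the cell and is abundant in fat. Fkbp5, Tsc22d3, Zbtb16 and Sgk1 are textbook targets of the receptor. The metallothionein genes Mt1 and Mt2, Pdk4 and Errfi1 answer to glucocorticoids as well as to metals, fasting and growth factor signals. In mammary gland, glucocorticoids act with prolactin on epithelial differentiation, and in fat they act on lipid turnover.

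The letters before annotated transcript starts of these genes were searched for the elements that the receptor and the metal-responsive factor are known to bind. RefSeq promoter windows (GRCm38.p6, where the submitters' processing notes name GRCm38) were matched for 8 of the 10 genes, 16 windows in all. The 250 bases before each start were searched on both strands. The full palindromic glucocorticoid response element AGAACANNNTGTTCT was present in 3 of 32851 windows of all genes (0.00913%), and 1 of the 3 belonged to Sgk1. The hexamer AGAACA, which makes up each arm of the palindrome and is counted within it too, was in 16.1% of windows. The inner part of the palindrome, ACANNNTGT, was in 5.84% of windows. The metal response element, searched as TGCGCNC and TGCACNC, was in 21.4% of windows, and 1.26% held at least 3 matches. In the Sgk1 and Tsc22d3 windows below, capitals mark the hexamer on either strand, and in the metallothionein windows they mark the metal response element. The Sgk1 and Tsc22d3 windows are shown because they held the palindrome and a hexamer. The metallothionein sequences are shown because they carry the metal element at genes that also respond to glucocorticoids, and the Mt1 sequence lies within its annotated gene.
Sgk1, chr10:21993640-21993889, forward strand: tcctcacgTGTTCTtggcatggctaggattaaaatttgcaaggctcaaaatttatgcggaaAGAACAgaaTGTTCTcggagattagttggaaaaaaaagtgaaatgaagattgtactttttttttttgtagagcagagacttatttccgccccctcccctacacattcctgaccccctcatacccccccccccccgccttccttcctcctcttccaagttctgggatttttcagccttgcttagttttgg
Tsc22d3, chrX:140600523-140600772, reverse strand: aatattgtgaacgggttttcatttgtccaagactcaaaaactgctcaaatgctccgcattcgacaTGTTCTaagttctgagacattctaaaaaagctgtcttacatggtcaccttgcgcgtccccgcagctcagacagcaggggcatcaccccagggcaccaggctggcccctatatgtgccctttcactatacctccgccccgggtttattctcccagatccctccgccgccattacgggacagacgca
Mt2, chr8:94172368-94172617, forward strand: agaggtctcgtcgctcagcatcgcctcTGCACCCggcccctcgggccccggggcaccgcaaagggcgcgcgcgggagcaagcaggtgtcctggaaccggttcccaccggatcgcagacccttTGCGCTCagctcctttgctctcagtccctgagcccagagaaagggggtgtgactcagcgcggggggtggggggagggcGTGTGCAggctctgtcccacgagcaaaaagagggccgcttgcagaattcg
Mt1, chr8:94179059-94179088, forward strand: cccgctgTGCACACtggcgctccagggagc

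The Sgk1 palindrome began 189 bases before the start of that window's transcript and 965 bases before the start of the transcript of the next window downstream. Sgk1 has 6 windows, and the other 5 held no palindrome. Numbered along the chromosome, window 1 held a hexamer 195 bases before its start, and window 4 held 1 that lay 13 bases before its start. Window 2 held no hexamer but held the inner part ACANNNTGT, 127 bases before its start. The Tsc22d3 hexamer lay 185 bases before the start, and the other 2 windows of Tsc22d3 held none. Mt2 held 3 metal response elements, which began 223, 128 and 50 bases before its start, and no hexamer. The Mt1 window held 1 metal response element, 23 bases before the start of that window's transcript and inside the annotated gene. It held no hexamer but held the inner part ACANNNTGT, 92 bases before the same start. Of this window, 206 bases lie within the annotated gene, so most of the letters before the gene's own start were not searched. Only the last 30 bases of the window are shown, and its count does not describe the Mt1 promoter. The windows of Fkbp5, Hsd11b1, Pdk4 and Errfi1 held no hexamer in these letters. The Hsd11b1 window, which lies within the annotated gene, held 1 metal response element, 237 bases before the start of its transcript. In the same build, Tsc22d3 spans 140539528 to 140600522 on chromosome X, Sgk1 spans 21882184 to 21999903 on chromosome 10, Fkbp5 spans 28398753 to 28486149 on chromosome 17 and Hsd11b1 spans 193221640 to 193264045 on chromosome 1. Pdk4 spans 5483351 to 5496278 on chromosome 6, Errfi1 spans 150853796 to 150868889 on chromosome 4 and Zbtb16 spans 48651797 to 48836225 on chromosome 9. A match is a description of the letters and not a measured binding site.

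Among the 9 genes tested, none passed the test across all genes after adjustment, and Tsc22d3 stood highest with a 3.21-fold higher mean level in BDE-47 mice. Nr3c1 itself had a mean 2.54-fold lower, with 2 of 7 BDE-47 mice far below the rest. The other 7 genes tested had intervals that spanned 0. No gene of any kind passed (limma, Benjamini-Hochberg adjusted p under 0.05, 0 of 9511 genes, 0.00%), so this count does not set these genes apart. At an unadjusted p under 0.05, 1 of the 9 was higher (Tsc22d3) beside 184 of all genes tested (1.93%), and 1 was lower (Nr3c1) beside 259 (2.72%). Past a 2-fold difference of means, Tsc22d3 and Sgk1 were higher beside 13.0% of all genes tested, and Nr3c1 was lower beside 13.2%. The median difference over the 9 genes was 0.25 on the log2 scale, beside -0.02 over all genes tested. In all 10 genes the values of the groups overlapped. Over all genes tested, groups that did not overlap were rare too, with 1 gene wholly higher in BDE-47 mice (0.0105%) and 0 wholly lower (0.00%), so this count does not set the 10 genes apart.

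**Figure D1:**
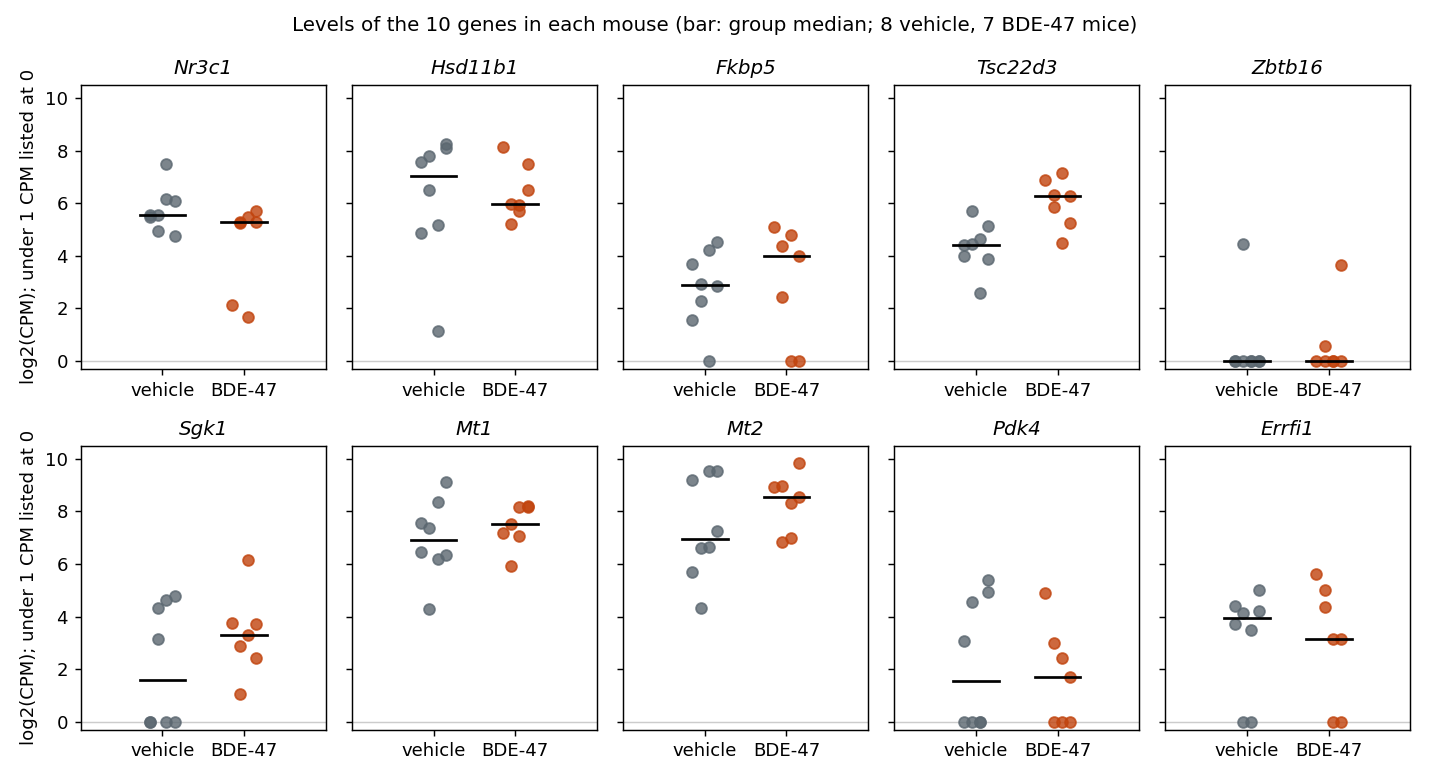
Each panel plots 1 gene, with log2(CPM) on the vertical axis, vehicle mice (grey, n = 8) on the left and BDE-47 mice (orange, n = 7) on the right, 1 point per mouse and a bar at the group median; genes under 1 CPM are listed at 0. Tsc22d3 medians were 4.42 and 6.27, while 2 BDE-47 mice lie apart at the bottom of the Nr3c1 panel.

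**Figure D2:**
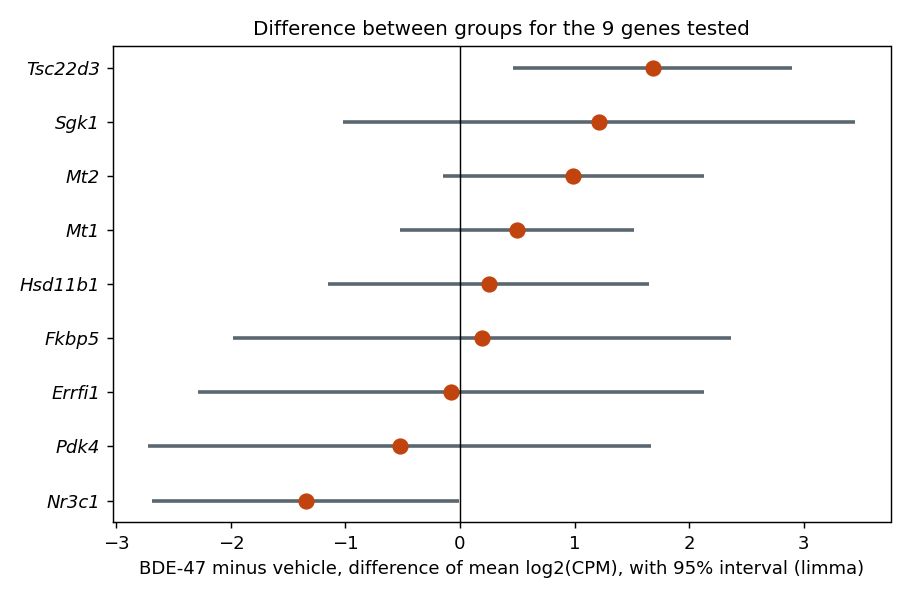
The horizontal axis is the difference of mean log2(CPM), BDE-47 minus vehicle, for the 9 genes tested (points), and the lines are 95% intervals from limma over 8 and 7 mice. The interval of Tsc22d3 runs from 0.46 to 2.90 and that of Nr3c1 ends just under 0, and the other 7 span 0.

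Nr3c1, the receptor gene, was above 1 CPM in every mouse. Vehicle mice ranged from 4.76 to 7.48 with a median of 5.56, and BDE-47 mice ranged from 1.67 to 5.72 with a median of 5.28. Of the 7 BDE-47 mice, 5 lay within the vehicle range and 2 lay below all vehicle mice, mouse 2 at 1.67 (47 reads) and mouse 4 at 2.12 (84 reads). The difference of means was -1.35 (standard error 0.66, limma 95% interval -2.69 to -0.0043, unadjusted p = 0.0493, adjusted p = 0.982), and an exact permutation test gave p = 0.0724. The difference of medians was -0.28. Without BDE-47 mouse 2 the difference of means was -0.89 (exact permutation p = 0.160), and without BDE-47 mouse 4 it was -0.96 (exact permutation p = 0.154).

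Hsd11b1, the activating enzyme, was the most abundant of the 10 genes by the vehicle median and varied widely between mice. Vehicle mice ranged from 1.16 to 8.24 with a median of 7.04, and BDE-47 mice ranged from 5.22 to 8.13 with a median of 5.96. Vehicle mouse 2 was far below all other mice at 1.16, and vehicle mice 6 and 8, with the low adipocyte markers, came next within that group at 5.16 and 4.85. The means differed by 0.25 (standard error 0.69, interval -1.15 to 1.65, limma adjusted p = 0.994), whereas without vehicle mice 6 and 8 the difference was -0.14. The part of fat content in these levels was not tested. On the other side of ligand control, Hsd11b2, the enzyme that inactivates corticosterone, was listed at 0 in all 15 mice.

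Tsc22d3, which encodes the leucine zipper protein GILZ and is among the most direct targets of the receptor, had the clearest difference. Vehicle mice 1 to 8 had 5.70, 2.57, 5.12, 4.40, 4.43, 4.62, 3.87 and 4.00, and BDE-47 mice 1 to 7 had 5.86, 4.47, 5.25, 6.87, 6.30, 7.14 and 6.27. Each of the 7 mice given BDE-47 exceeded the vehicle median and 5 of them exceeded the highest vehicle mouse, but BDE-47 mice 2 and 3 fell within the vehicle range. In reads, these levels were 88 to 797 per vehicle mouse and 327 to 2752 per BDE-47 mouse. The means differed by 1.68 (standard error 0.60, interval 0.46 to 2.90, limma unadjusted p = 0.00806, adjusted p = 0.982), which placed Tsc22d3 46th of 9511 genes by p. An exact permutation test over the 6435 ways to choose 7 of 15 mice gave p = 0.00373, where the smallest possible is 0.000155. Among the 2579 genes above 1 CPM in all mice it was 4th by p, with an adjusted p of 0.923.

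**Figure D3:**
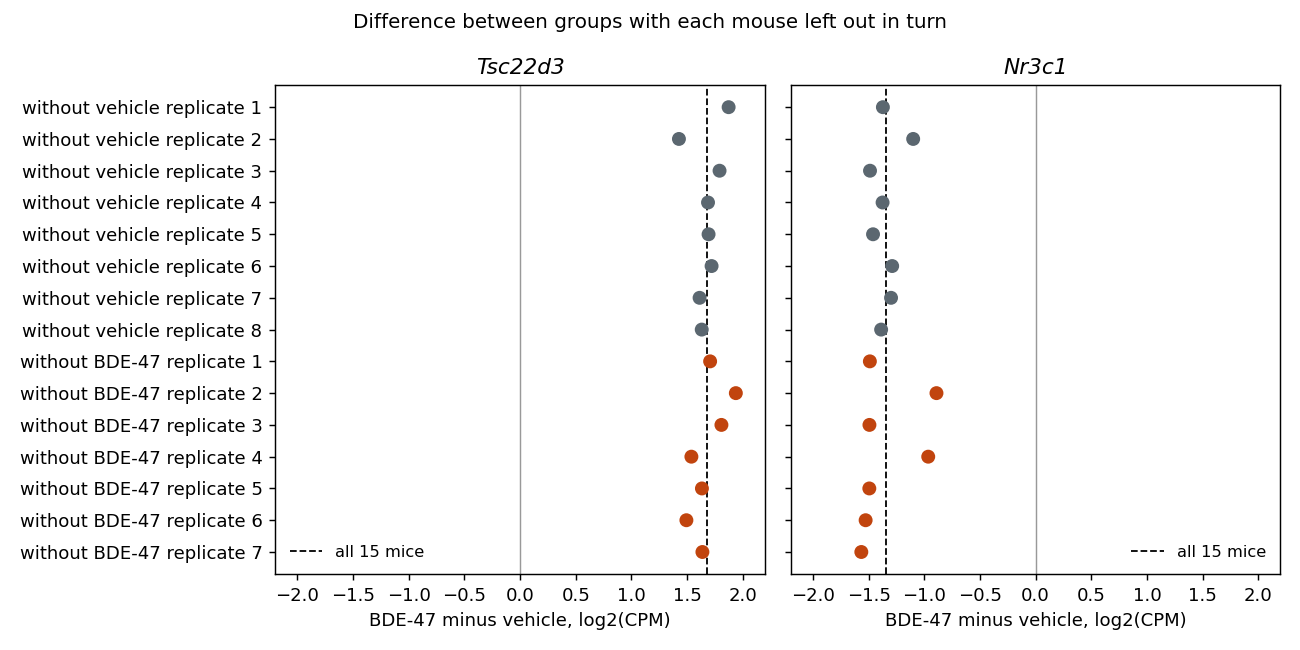
The horizontal axis is the difference of mean log2(CPM), BDE-47 minus vehicle, and each point leaves out the mouse named on the vertical axis (grey for vehicle, orange for BDE-47); the dashed line is the difference with all 15 mice. Tsc22d3 stayed between 1.43 and 1.94, while Nr3c1 moved from -1.57 to -0.89 and was closest to 0 without BDE-47 mouse 2.

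The highest Tsc22d3 level belonged to BDE-47 mouse 6, the mouse with skeletal muscle markers. Without it the difference was 1.49 (exact permutation p = 0.00999), and without all 3 mice that stood apart it was also 1.49 (exact permutation p = 0.0216, limma adjusted p = 0.968). Vehicle mouse 2 held the lowest level at 2.57, and without it the difference was 1.43 (exact permutation p = 0.00758). With each of the 15 mice left out in turn, the difference was 1.43 to 1.94 and the exact permutation p was 0.000999 to 0.00999.

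Fkbp5, a chaperone of the receptor complex and a common index of its activity, had similar means in both groups and a wide spread. Vehicle mice 1 to 8 were listed at 2.94, 0, 4.54, 1.55, 2.29, 4.24, 2.84 and 3.70, and BDE-47 mice 1 to 7 at 2.42, 0, 3.99, 5.10, 4.37, 4.80 and 0. BDE-47 mice 4 and 6 were above every vehicle mouse, and mice 2 and 7 of the same group were listed at 0. The means differed by 0.19 (standard error 1.08, interval -1.98 to 2.37, limma adjusted p = 0.997), an interval wide enough to hold a 2-fold difference either way. The medians lay further apart, at 2.89 in vehicle and 3.99 in BDE-47 mice. Over mice above 1 CPM only, the Fkbp5 difference was 0.98, whereas with log2(CPM + 0.1) over all mice it was -0.35. Zbtb16, a zinc finger transcription factor and receptor target, was above 1 CPM in 3 mice only, at 4.43 in vehicle mouse 1 and at 0.58 and 3.66 in BDE-47 mice 1 and 3, and was not tested by limma.

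Sgk1, a kinase that raises sodium transport and cell survival, was above 1 CPM in 4 of 8 vehicle mice and in each of 7 mice with BDE-47. Vehicle mice 1 to 8 were listed at 4.33, 4.64, 4.78, 0, 3.16, 0, 0 and 0, and BDE-47 mice 1 to 7 at 1.06, 6.17, 3.73, 3.75, 2.90, 3.29 and 2.41. The highest level was in BDE-47 mouse 2, and the levels above 1 CPM overlapped between groups. The means differed by 1.21 (standard error 1.11, interval -1.02 to 3.45, limma adjusted p = 0.982), and an exact permutation test gave p = 0.251. Among the mice above 1 CPM the difference was -0.90, so its direction rested on the vehicle mice listed at 0. Vehicle mice 6 and 8 were 2 of those 4, and without them the difference was 0.51.

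Mt1 and Mt2, the metallothioneins, which bind zinc and copper, were the most abundant of the 10 genes when all mice were ranked. Mt1 ranged from 4.28 to 9.13 in vehicle mice (median 6.91) and from 5.93 to 8.21 in BDE-47 mice (median 7.51). Mt2 ranged from 4.32 to 9.55 in vehicle mice (median 6.95) and from 6.83 to 9.83 in BDE-47 mice (median 8.54). For each gene 6 of 7 mice given BDE-47 exceeded the vehicle median, and the groups overlapped. Below the lowest BDE-47 mouse lay 1 of 8 vehicle mice for Mt1 and 4 of 8 for Mt2. The differences of means were 0.50 for Mt1 (standard error 0.50, interval -0.52 to 1.52) and 0.99 for Mt2 (standard error 0.57, interval -0.15 to 2.13), each with a limma adjusted p of 0.982. Vehicle mouse 5 was lowest for both genes, and without it the differences were 0.12 and 0.56. Without vehicle mice 6 and 8 they were 0.28 and 0.60.

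The pair moved together across mice. Over 15 mice Pearson's r between Mt1 and Mt2 was 0.87 (permutation p = 4.00e-05, adjusted over 18 relations 0.000720) and Spearman's rho was 0.83 (permutation p = 0.000240, adjusted 0.00432). The relation held without the 2 mice farthest from the median of Mt1 (r = 0.78), within vehicle mice (r = 0.90) and within BDE-47 mice (r = 0.74). The genes lie 5315 bases apart on chromosome 8, where Mt2 spans 94172618 to 94173567 and Mt1 spans 94178883 to 94180327 (GRCm38.p6). Mt2 was the higher of the pair in 12 of 15 mice. Its level exceeded that of Mt1 by a mean of 0.62 on the log2 scale (SD 0.82, exact sign-flip permutation p = 0.0130, adjusted over 9 pairs 0.0585). The sequences of the genes are alike in part, and how reads shared by both were counted is not given in the sources used here.

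**Figure D4:**
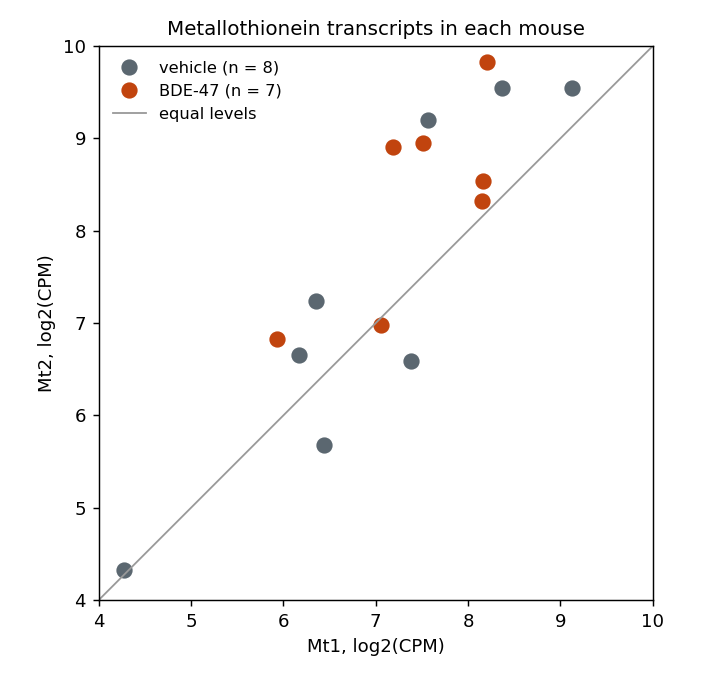
Mt1 is on the horizontal and Mt2 on the vertical axis, both in log2(CPM), with 1 point per mouse (grey for 8 vehicle mice, orange for 7 BDE-47 mice) and a line at equal levels. Points rise along the line with r = 0.87, and 12 of 15 lie above it.

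Pdk4, the kinase that shuts off pyruvate oxidation during fasting, was listed at 0 in 7 of 15 mice. Vehicle mice 1 to 8 were listed at 4.56, 0, 4.92, 3.08, 0, 0, 5.39 and 0, and BDE-47 mice 1 to 7 at 3.01, 0, 1.69, 4.89, 0, 2.44 and 0. In each group 4 mice were above 1 CPM, and the means differed by -0.53 (standard error 1.09, interval -2.72 to 1.67, limma adjusted p = 0.994). Errfi1, a feedback inhibitor of the EGF receptor family, was listed in vehicle mice 1 to 8 at 4.12, 3.50, 4.99, 3.73, 0, 0, 4.21 and 4.42. In BDE-47 mice 1 to 7 it was listed at 5.01, 0, 3.17, 5.62, 4.35, 3.15 and 0. BDE-47 mouse 1 was just above the highest vehicle mouse and mouse 4 clearly above it, 2 mice of each group were at 0, and the means differed by -0.08 (standard error 1.10, interval -2.29 to 2.13, limma adjusted p = 1.00).

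Because the assay reads 1 end of each transcript, CPM was compared between genes without a correction for length. Other differences between genes in how well their reads were captured or assigned were not tested. Pgk1, which nearly every cell uses, was listed at 0 in 12 of 15 mice. By the median of vehicle mice in log2(CPM), the order was Hsd11b1 (7.04), Mt2 (6.95), Mt1 (6.91), Nr3c1 (5.56), Tsc22d3 (4.42), Errfi1 (3.93), Fkbp5 (2.89), Sgk1 (1.58), Pdk4 (1.54) and Zbtb16 (0). Hsd11b1 was above Mt2 in 3 of 8 vehicle mice only, and by the mean of vehicle mice Hsd11b1 (6.17) came after Mt2 (7.35) and Mt1 (6.96). Of the 9 neighbouring pairs, 2 had an unadjusted p under 0.05 and none passed adjustment over the 9. Mt1 was above Nr3c1 in 7 of 8 vehicle mice, by a mean of 1.21 (SD 1.56, exact sign-flip permutation p = 0.0391, adjusted 0.176). Nr3c1 was above Tsc22d3 in 6 of 8, by a mean of 1.41 (SD 1.66, exact sign-flip permutation p = 0.0312, adjusted 0.176). The smallest p this test allows with 8 mice is 0.00781. The other 7 neighbours had exact sign-flip permutation p of 0.125 to 0.812. Over all 15 mice Tsc22d3 was above Errfi1 in 12, by a mean of 2.04 (SD 2.21, exact sign-flip permutation p = 0.00232, adjusted 0.0209). Over the same mice Nr3c1 and Tsc22d3 differed by a mean of -0.00087 (SD 2.24, exact sign-flip permutation p = 0.999).

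Co-variation across mice was tested with Fkbp5 and with Nr3c1 as the index, in models with the group as a term. No gene passed for Fkbp5 (limma, 0 of 9510, lowest adjusted p 0.336, 666 at an unadjusted p under 0.05) or for Nr3c1 (0 of 9510, lowest adjusted p 0.653, 492 at an unadjusted p under 0.05). Between Fkbp5 and Tsc22d3, Pearson's r was 0.49 (permutation p = 0.0678, adjusted 0.409) and Spearman's rho was 0.55 (permutation p = 0.0359, adjusted 0.323). The 3 mice with Fkbp5 listed at 0 tied as farthest from its median, vehicle mouse 2 and BDE-47 mice 2 and 7. Without vehicle mouse 2 and BDE-47 mouse 2, r was 0.24, whereas the other choices of 2 of them gave 0.56 and 0.74, and without all 3 it was 0.57 over 12 mice. Within vehicle mice r was 0.67 and within BDE-47 mice 0.61. Between Nr3c1 and Hsd11b1, r was -0.43 (permutation p = 0.117, adjusted 0.409), and Spearman's rho was -0.35 (permutation p = 0.204, adjusted 0.575). Without BDE-47 mice 2 and 4, the farthest from the median of Nr3c1, r was -0.70, and without vehicle mouse 2 it was -0.14. Within vehicle mice r was -0.76 and within BDE-47 mice -0.35. Vehicle mouse 2 had the highest Nr3c1, the lowest Hsd11b1 and the lowest Tsc22d3 of all 15. Among the 45 pairs of the 10 genes, 31 had r above 0, the median was 0.14, and 3 pairs were above 0.5. These were Mt1 with Mt2 (0.87), Hsd11b1 with Pdk4 (0.70) and Pdk4 with Errfi1 (0.66). Pdk4 was listed at 0 in 7 mice, of which 4 also had Errfi1 at 0, while Hsd11b1 was above 1 CPM in all mice. Over the 8 mice above 1 CPM for both genes, r was 0.66 for Hsd11b1 with Pdk4 and 0.67 for Pdk4 with Errfi1.

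**Figure D5:**
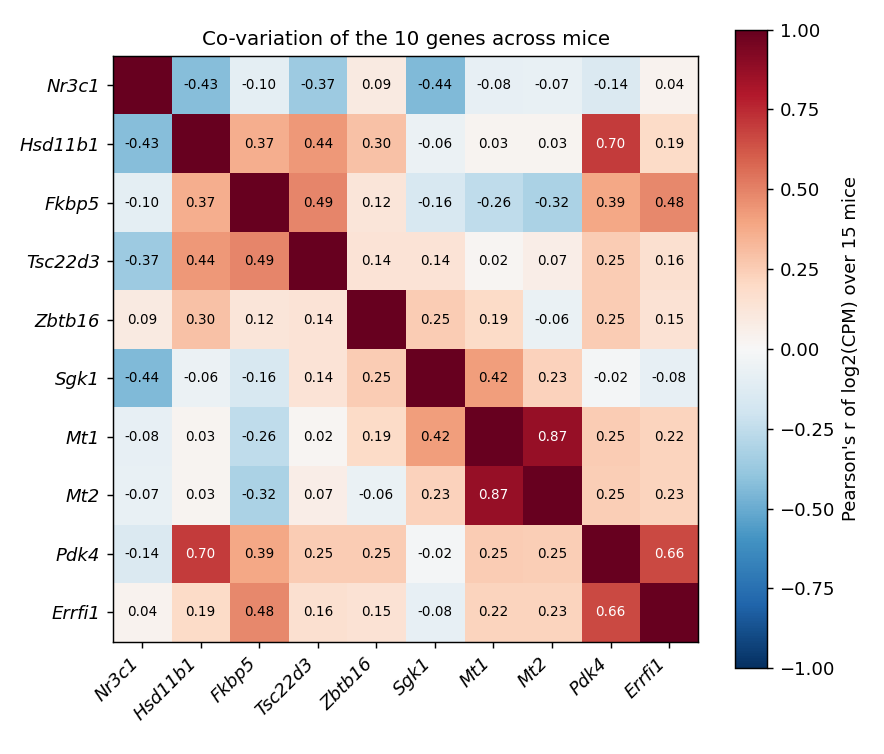
Each cell gives Pearson's r of log2(CPM) between a pair of the 10 genes over 15 mice, on a scale from -1 (blue) to 1 (red), with the same genes in the same order on both axes. The metallothionein pair has the highest value, 0.87, and Nr3c1 with Sgk1 the lowest, -0.44.

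By Pearson's r over 15 mice, the genes most like Fkbp5 were Dhx29 (0.88), Mrpl1 (0.86), Kpna1 (0.85), Ap4s1 (0.85) and Pias3 (0.84). Those most like Nr3c1 were BC003965 (0.91), Snhg6 (0.87), Slc45a4 (0.86), Psmg3 (0.85) and Ccnt2 (0.85). These 10 genes were each above 1 CPM in 11 to 14 mice, and the part of shared values at 0 in this order was not tested. Among genes above 1 CPM in all 15 mice, the 5 most like Fkbp5 were others, led by Mkrn1 (0.81), Mrpl33 (0.80) and Ndufv2 (0.80), and the 5 most like Nr3c1 were led by Nipbl (0.84), Tgfbr3 (0.84) and Arid2 (0.84). By either ranking, none of the glucocorticoid genes studied was among the 5 most like either index.

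Around the receptor, 18 chaperones and coregulators were tested, of which 9 were higher and 9 lower with BDE-47 and none passed at an unadjusted p under 0.05. The smallest p in each direction belonged to the co-chaperone Stip1 (difference 0.72, limma adjusted p = 0.982) and the coactivator Ncoa3 (-0.97, adjusted p = 0.990). Of 10 genes of corticosteroid synthesis, transport and activation, 2 could be tested, and Serpina6 and Cyp11b1 joined Hsd11b2 at 0 in all mice. H6pd, which supplies the cofactor for the enzyme of Hsd11b1, had medians of 4.99 and 5.58 in vehicle and BDE-47 mice (difference 0.72, limma adjusted p = 0.982). The drug and steroid exporter Abcb1a had medians of 0.79 and 0 (difference -0.85, adjusted p = 0.982).

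Among 23 tested genes of 29 others known to respond to glucocorticoids, 15 were higher and 8 lower, with a median difference of 0.27 beside -0.02 over all genes. At an unadjusted p under 0.05, 2 were higher, Fbxo32 and Bcl6, and 0 were lower, beside 1.93% higher and 2.72% lower over all genes tested. The surplus of higher genes in this list did not hold without the mice that stood apart. Without vehicle mice 6 and 8, 11 of the 23 were higher and 12 lower (median difference -0.011, beside -0.07 over all genes). Without BDE-47 mouse 6 as well, 12 were higher and 11 lower (0.036, beside -0.0004). Fbxo32, a ubiquitin ligase of muscle atrophy, had medians of 4.29 and 5.24 (difference 2.03, standard error 0.96, limma adjusted p = 0.982), and its highest value, 7.41, came from BDE-47 mouse 6 with the muscle markers. Klf9, a receptor target that represses transcription, had the smallest p among those lower, with medians of 5.84 and 5.11 (difference -0.78, adjusted p = 0.982).

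The neighbours of the other members gave small counts as well. Of 4 metal handling genes tested, the zinc importer Slc39a14 was above 1 CPM in 3 of 8 vehicle and 5 of 7 BDE-47 mice (difference 2.73, standard error 1.08, limma unadjusted p = 0.0151, adjusted p = 0.982). The zinc exporter Slc30a1 differed by -0.58 (adjusted p = 0.994), and Mt4 was listed at 0 in all mice. Of 11 tested genes of pyruvate dehydrogenase control and fasting, 5 were higher and 6 lower. At an unadjusted p under 0.05 there were 0 higher and 2 lower, Cpt1a and Pdp2, beside 1.93% higher and 2.72% lower over all genes tested. Pdk1 differed by 1.96 (limma unadjusted p = 0.0572), and Cpt1a, which admits fatty acids to mitochondria, by -1.67 (unadjusted p = 0.0292), and Pdp2, a phosphatase that reactivates pyruvate dehydrogenase, by -1.93 (unadjusted p = 0.0377), each with an adjusted p of 0.982. Of 8 tested genes of the EGF receptor family and its ligands and inhibitors, 6 were higher and none had an unadjusted p under 0.05, with Areg at 1.70 (limma unadjusted p = 0.140) and Cbl at -0.70 (unadjusted p = 0.340).

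Immediate early genes, which answer to acute stress, and clock genes, which follow the hour of the day, were also counted. Of 10 immediate early genes tested, 8 were higher and 2 lower (9 and 1 without the 3 mice that stood apart). Of those higher, Fos and Egr1 had an unadjusted p under 0.05, with Egr1 at a difference of 1.66 (standard error 0.81, limma adjusted p = 0.982). Btg2 had the lowest p among those lower (-0.58, adjusted p = 0.993). Of 11 clock genes tested, 8 were higher and 3 lower (6 and 5 without the 3 mice that stood apart), and Tef, Dbp, Per2 and Clock had an unadjusted p under 0.05. At that threshold, 1.93% of all genes tested were higher and 2.72% lower, and these lists were chosen with earlier results of these data known. Tef had medians of 5.56 and 7.12 (difference 1.60, standard error 0.46, limma unadjusted p = 0.00123) and Clock had medians of 5.24 and 2.53 (difference -1.91, unadjusted p = 0.0440), each with an adjusted p of 0.982. The part of these genes in the level of Tsc22d3 was not tested, and the hour of dissection is not given in the sources used here.

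The cells that make up the gland were followed by marker lists, and none of their genes passed after adjustment. All 8 luminal epithelial markers were higher with BDE-47 (median difference 1.08), led by Krt18 at 1.12 (limma adjusted p = 0.982), and 0 had an unadjusted p under 0.05. Their summed levels were 41.2 and 189 CPM in vehicle mice 6 and 8 and 143 CPM in BDE-47 mouse 6, against 745 to 3682 CPM in the other 12 mice, and the group medians were 1695 CPM (vehicle) and 1762 CPM (BDE-47). Without vehicle mice 6 and 8, 2 luminal markers were higher and 6 lower (median difference -0.13), and without all 3 mice that stood apart 8 were higher (0.42). Of 8 adipocyte markers 7 were higher (median difference 0.33), with Plin1 at 0.74 and Lep at -0.00010. This direction turned without vehicle mice 6 and 8, when 0 were higher and 8 lower (median difference -0.89), and without all 3 mice the counts were the same (-0.71). All 8 skeletal muscle markers were higher (median difference 1.46), with Acta1 reaching 15.06 in BDE-47 mouse 6, and without the 3 mice 6 were higher and 2 lower (0.088). Of 8 endothelial markers 4 were higher, and Pecam1 (-1.32) and Cldn5 were lower at an unadjusted p under 0.05, beside 2.72% of all genes tested. Of 8 fibroblast markers 4 were higher and 4 lower, of 8 myoepithelial markers 3 were higher and 5 lower, and of 7 macrophage markers tested 2 were higher and 5 lower. Without the 3 mice, the fibroblast counts were 2 higher and 6 lower and the macrophage counts 4 higher and 3 lower. All 6 keratinocyte markers tested were higher (median difference 0.23), and no B cell marker was above 1 CPM in enough mice to be tested. Of 12 genes tested that nearly every cell uses, 4 were higher and 8 lower (7 and 5 without the 3 mice). Of these, B2m and Polr2a (-2.06) were lower at an unadjusted p under 0.05, beside the same 2.72% of all genes tested. The part of these cell types in the levels of the 10 genes was not tested beyond leaving out the 3 mice that stood apart.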

How the data were processed

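Mammary tissue of 8 vehicle and 7 BDE-47 mice was measured by QuantSeq 3′ FWD RNA sequencing on an Illumina instrument, 1 library per mouse. The authors mapped reads with STAR (2.5.3a, GRCm38, per the submitters' processing notes) and normalized them to CPM. The deposited unit is log2(CPM), and genes under 1 CPM stand at 0, as read from the values. Of 52636 entries per mouse, 110 with a repeated name were dropped, keeping the entry with the highest mean. Depth was recovered from the spacing of low values, and 100% of these low values were whole reads within 0.1 read. Higher values were not checked in this way. Count models were not used, since reads under 1 CPM are lost.

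Genes above 1 CPM in at least 7 mice (9511) were compared with limma 3.58.1 in R 4.3.3 (trend in the prior variance, two-sided, Benjamini-Hochberg over all genes tested, threshold 0.05). Single genes were also compared by exact permutation of mice, neighbouring levels by exact sign flips within mice, and co-variation by 100000 permutations, in Python 3.11.15 with numpy 2.4.6, pandas 2.3.3 and scipy 1.17.1, all two-sided. Folds are differences of mean log2(CPM). The limma fit, the exact permutation test, the sign flips and the motif search were tested on simulated data. The values simulated for limma had no floor at 0. Depth recovery and the co-variation permutations were not tested in this way. Figures were drawn with matplotlib 3.10.9. Genes named were all 10 genes, the tested gene of each other list with the smallest p in each direction, and the 5 genes most like Fkbp5 and Nr3c1. The mice with B cell or muscle markers, and genes named by an unadjusted p or a level of 0, were singled out after their values were seen, as were the counts without those mice and the choices among the 3 mice tied for Fkbp5. The genes and lists were chosen with earlier results of these data known. Mice are taken as independent animals.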

Additional observations from a re-analysis of the deposited data

Results flagged for a closer look

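Zbtb16 was the gene in which a single mouse stood far from its group, once in each group. In vehicle mice, mouse 1 was at 4.43 log2(CPM) and the other 7 were listed at 0. In BDE-47 mice, mouse 3 was at 3.66, and the next highest was mouse 1 at 0.58. The comparison of the most extreme mouse with the range of its group was made in 20 groups (10 genes in each of the 2 exposures) and marked 2 of them. Chance alone marks about 1 in 20 where values have no floor. That rate does not hold for these 2 groups, in which most mice were listed at 0. Vehicle mouse 1 and BDE-47 mouse 3 also had more genes above 1 CPM than the other mice of their groups, 11490 and 12689, and the part of this in the Zbtb16 values was not tested. Low values were listed at 0, so a group of zeros with 1 value above them is always marked.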

How the results depend on the processing

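The count of 0 among the 10 genes held in each alternative run, and the count of 0 over all genes held in all except one chosen after seeing the data, in which leaving out the 3 mice with B cell or skeletal muscle markers gave 2 genes, neither of them among the 10. Tsc22d3 stayed higher and Nr3c1 lower with BDE-47 under every alternative, at 1.43 to 1.94 and at -1.57 to -0.28. By the log2 ratio of mean CPM, 1 of the 10 genes was past 2-fold higher instead of 2, Hsd11b1 turned to -0.39, Zbtb16 to -0.42 and Errfi1 to 0.27. By the difference of medians, Hsd11b1 turned to -1.07 and Pdk4 to 0.15. Over mice above 1 CPM only, Sgk1 turned to -0.90, Zbtb16 to -2.31 and Errfi1 to 0.10. With log2(CPM + 0.1), Fkbp5 turned to -0.35. With median-of-ratios size factors, Errfi1 was at 0.045. Without the vehicle mice with B cell markers, Hsd11b1 was at -0.14 and Zbtb16 at -0.13, and without the muscle mouse as well they were at -0.021 and -0.033. With single mice left out, Hsd11b1 ranged from -0.47 to 0.55, Fkbp5 from -0.20 to 0.69, Zbtb16 from -0.46 to 0.61 Errfi1 from -0.52 to 0.43, Pdk4 from -1.05 to -0.08, Sgk1 from 0.74 (without BDE-47 mouse 2) to 1.60, Mt1 from 0.12 to 0.81 and Mt2 from 0.56 to 1.30. Vehicle mouse 5 gave the lowest value of both metallothioneins when left out. Other values that kept their direction but moved past 1.5 times included Sgk1 at 2.89 with log2(CPM + 0.1), Mt1 at 0.077 and Mt2 at 0.36 by the log2 ratio of mean CPM, and Pdk4 at -1.27 without the vehicle mice with B cell markers. Leaving out each of 7 vehicle mice listed at 0 moved Zbtb16 to -0.03. The cause of these turns was not tested.

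The labels do not say that equal replicate numbers pair the mice. Correlations of deviations between same-numbered mice were -0.02 to 0.05, none above 0.1, so the numbers were not taken as pairs. As a hint from the data towards pairing, and not from the design, 4 of 7 BDE-47 mice correlated best with the vehicle mouse of their own number. With the replicate block, over 14 mice without vehicle mouse 8, no gene passed, Tsc22d3 differed by 1.63 (limma adjusted p = 0.993) and Errfi1 turned to 0.11. Values at 0 stand for anything under 10.1 to 19.6 reads, which limits Fkbp5, Sgk1, Pdk4, Errfi1 and Zbtb16 most.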
